A study of Homo sapiens with 20 samples.

Results

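CYP2C8, CYP2C18 and CYP2C19 are members of the CYP2C subfamily of cytochrome P450 enzymes, and their RNA levels were followed through the differentiation of HepaRG cells with and without dimethyl sulfoxide (DMSO). The members were taken as all probes whose RefSeq accession maps to 1 of these 3 symbols. This gave 3 probes, 1 for each gene, among 42405 probes, and 3 genes among the 19062 genes with a current symbol on the arrays. CYP2C8 was read by probe A_23_P161368 (NM_000770), CYP2C18 by A_23_P52480 (NM_000772) and CYP2C19 by A_33_P3326075 (NM_000769).

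HepaRG is a human hepatoma line whose progenitors form hepatocyte-like and biliary-like cells in culture. All cells were grown in medium with serum, insulin and hydrocortisone, so the glucocorticoid was present in every condition. D4 and D15 cells were collected at days 4 and 15 without DMSO. D30 − DMSO cells were kept without DMSO to day 30, D30 + DMSO cells received 2% DMSO from day 15 to day 30, and D34 ± DMSO cells were treated in the same way until day 30 and then kept for 4 days without DMSO. Each condition has 4 one-color Agilent arrays, from 4 experiments that the submitters call independent, all of a single cell line. D34 ± DMSO cells were 4 days older than both day 30 conditions, and no culture kept in DMSO to day 34 is part of the comparison, so that DMSO removal and the additional days cannot be told apart.

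Enzymes of the CYP2C subfamily are monooxygenases of the hepatocyte endoplasmic reticulum that receive electrons from cytochrome P450 reductase and oxidise drugs, steroids and fatty acids such as arachidonic acid. CYP2C8 is known for the oxidation of paclitaxel and amodiaquine, and CYP2C19 for that of omeprazole, mephenytoin and clopidogrel. CYP2C18 is transcribed in liver, where little of its protein has been found. Transcription of the subfamily in liver is known to respond to the nuclear receptors PXR (NR1I2), CAR (NR1I3) and the glucocorticoid receptor (NR3C1), and to depend on liver-enriched factors such as HNF4A and CEBPA.

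The genes lie in a cluster on chromosome 10, and promoter sequences of 2 of the 3 members, taken from RefSeq (GRCh38.p14), were used here. The 250 bases before the start of each gene are shown because both genes rose together from D4 to D15. The capitals mark CAAAGTCC, letters found in HNF4-type elements, and TATAAA, those of a TATA box, both searched on both strands and chosen after the sequences were seen. The sequence of CYP2C19 is chr10:94762431-94762680 on the plus strand and that of CYP2C8 is chr10:95069498-95069747 on the minus strand, both written 5′ to 3′ in the direction of the gene.
CYP2C19: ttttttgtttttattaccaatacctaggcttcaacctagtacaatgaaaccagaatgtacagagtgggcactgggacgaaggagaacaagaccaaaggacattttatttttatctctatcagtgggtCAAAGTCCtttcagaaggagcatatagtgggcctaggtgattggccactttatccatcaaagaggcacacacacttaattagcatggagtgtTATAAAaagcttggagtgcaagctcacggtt
CYP2C8: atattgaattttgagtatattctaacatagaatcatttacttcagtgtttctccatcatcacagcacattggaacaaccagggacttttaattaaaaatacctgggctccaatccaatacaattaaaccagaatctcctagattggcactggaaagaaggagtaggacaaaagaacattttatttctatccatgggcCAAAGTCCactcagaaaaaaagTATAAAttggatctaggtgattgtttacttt
Both motifs were found in both promoters, on the strand of the gene. TATAAA lay 31 to 26 bases before the start in each, whereas CAAAGTCC lay 53 to 46 bases before the start of CYP2C8 and 123 to 116 bases before that of CYP2C19. Of 27305 promoters of the same length, 1.02% hold CAAAGTCC, 11.1% hold TATAAA and 0.15% hold both. In a global alignment the promoters shared 135 identical bases over 278 columns (48.6%). An alignment of this length is too short to pair the CAAAGTCC letters of the 2 genes, which lie at different distances from the start. Like stretches that are shifted against each other are thus not counted, and the share does not measure how alike the promoters are. A match of letters is a description of the sequence and not a binding site.

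The authors deposited a processed signal for each spot, an intensity from which the background of the array has been subtracted and which is not yet comparable between arrays. Here, the arrays were brought to a common 75th percentile, signals under 1 were raised to 1, and log2 was taken. A log2 value of 0 thus stands for the 75th percentile on each array. The 75th percentile lay between 283 and 526 intensity units, and between 56% and 70.6% of the probes of an array were well above background in the call of the scanner software. The arrays lie on 4 slides and were scanned in 2 sessions, of which session 2 holds 1 slide with replicate 4 of every condition and replicate 3 of D15 and of D30 + DMSO. Hepatocyte markers were present in all conditions, and 10 of 10 were higher at D15 than at D4. Of the endothelial markers 2 of 4 genes were tested, with summed signals between 211 and 819.5. By their probes of highest mean, the 3 blood cell markers were well above background on all 20 arrays, with summed signals between 1709 and 5507. Their mean log2 values by condition were −2.64 to −2.38 for PTPRC, −0.31 to 1.28 for CD68 and 2.22 to 3.38 for CD14, the last 2 of which are known from macrophages and monocytes. PTPRC has 4 probes, and only 1 of them was well above background on all arrays of some condition. The biliary and progenitor genes, of which 6 of 8 were tested, had summed signals between 67300 and 191200. The arrays measured RNA of the whole culture, in which fewer cells of a type and less RNA per cell cannot be told apart.

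CYP2C8 was at the edge of detection at D4, rose at D15, was highest in D30 + DMSO and was lower again after DMSO was removed. Its processed signals in replicates 1 to 4 were 7.97, 15.0, 0.598 and 35.4 at D4, where replicate 4 alone was well above background. They were 478.7, 485.9, 336 and 1287 at D15, and 769.7, 715.5, 910.5 and 1347 in D30 − DMSO. In D30 + DMSO they were 1559, 2682, 2633 and 4652, and in D34 ± DMSO 811.3, 983, 286.1 and 1181. All 4 arrays of D30 + DMSO lay above every array of the other conditions, while the arrays of D34 ± DMSO overlapped those of D15 and of D30 − DMSO. The mean log2 values were −5.84 ± 2.06 at D4, 0.60 ± 0.91 at D15, 0.97 ± 0.72 in D34 ± DMSO, 1.24 ± 0.42 in D30 − DMSO and 3.02 ± 0.63 in D30 + DMSO (SD, n = 4).

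CYP2C18 also rose from the edge of detection, but had no separate maximum with DMSO. Its processed signals in replicates 1 to 4 were 12.2, 10.3, 2.89 and 18.1 at D4, where again replicate 4 alone was well above background. They were 282.8, 237.7, 101.1 and 275.1 at D15, and 488.2, 355.3, 462.7 and 295.8 in D30 − DMSO. In D30 + DMSO they were 1090, 1049, 463.8 and 350.5, and in D34 ± DMSO 1238, 1024, 537.7 and 591.1. After scaling, the arrays of D30 + DMSO spread over 0.05 to 1.74 on the log2 scale and overlapped those of D30 − DMSO and of D34 ± DMSO, whereas D34 ± DMSO lay above D30 − DMSO on every array. The mean log2 values were −5.73 ± 1.07 at D4, −0.84 ± 0.72 at D15, 0.03 ± 0.31 in D30 − DMSO, 0.99 ± 0.80 in D30 + DMSO and, highest, 1.11 ± 0.36 in D34 ± DMSO (SD, n = 4).

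CYP2C19 had no array well above background at D4 and the largest difference between the day 30 conditions of the 3 genes. Its processed signals in replicates 1 to 4 were −2.9, −9.78, −1.77 and 6.41 at D4, so that 3 arrays were set to the floor. They were 209.8, 178.6, 128.3 and 392.8 at D15, and 494.9, 510.4, 554.5 and 377.9 in D30 − DMSO. In D30 + DMSO they were 2365, 3153, 3370 and 2723, and in D34 ± DMSO 2577, 2623, 1133 and 1116. After scaling, D30 − DMSO, D34 ± DMSO and D30 + DMSO followed each other without overlap. The mean log2 values were −7.98 ± 1.20 at D4, −0.84 ± 0.77 at D15, 0.32 ± 0.20 in D30 − DMSO, 2.22 ± 0.47 in D34 ± DMSO and 3.12 ± 0.27 in D30 + DMSO (SD, n = 4).

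**Figure D1:**
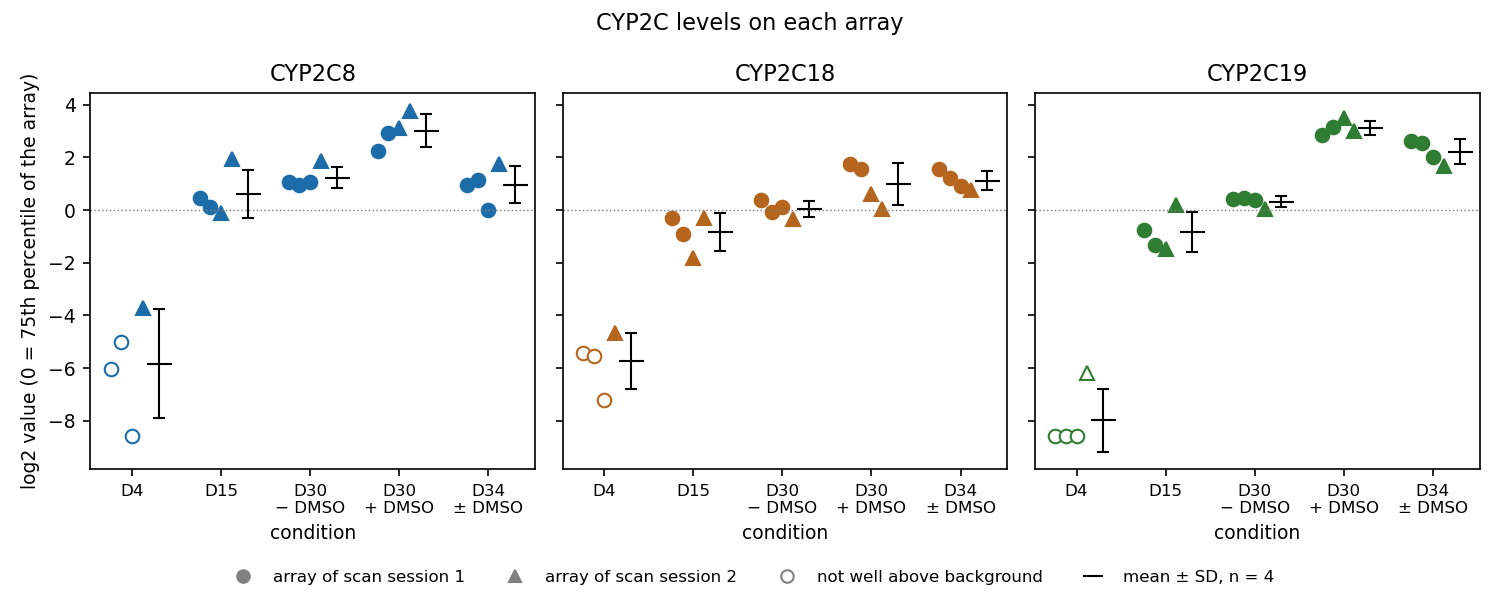
Log2 values (vertical axis, with 0 at the 75th percentile of each array) of CYP2C8, CYP2C18 and CYP2C19 on each of 4 arrays per condition (horizontal axis), with circles for scan session 1, triangles for session 2, open symbols for arrays not well above background and black bars for the mean ± SD. CYP2C8 was highest in D30 + DMSO, CYP2C18 had about equal means in D30 + DMSO (0.99) and D34 ± DMSO (1.11), and the D34 ± DMSO arrays of CYP2C19 lay between those of D30 − DMSO and D30 + DMSO.

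Differences between conditions were tested with limma over 26327 probes. A probe entered the test if some condition had it well above background on its 4 arrays, and all 3 members passed this filter. A gene was called changed when its adjusted p (Benjamini-Hochberg) was below 0.005 and its change exceeded 2-fold. Over the 5 conditions, all 3 genes were called by the F-test at a Bonferroni p below 0.001 and more than 3-fold, with a Bonferroni p of 9.83e-05 for CYP2C8, 1.51e-06 for CYP2C18 and 3.64e-10 for CYP2C19, beside 5.03% of all probes called. The call of CYP2C8 was lost when D4 replicate 1 was left out (limma, Bonferroni-adjusted p = 0.00187). Standard errors are those of 1 fit over the 20 arrays. For CYP2C8, whose D4 arrays spread widely near the floor, the standard error of every difference was 0.718 on the log2 scale, against 0.444 in a fit of the 16 later arrays that was added after the data were seen.

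The comparison of D4 and D15 asked what changed as progenitors committed to differentiation, before any DMSO. All 3 genes rose, in a step in which 5.52% of all probes were called higher. The difference on the log2 scale was 6.44 ± 0.72 for CYP2C8 (SE, limma adjusted p = 1.72e-06) and 4.89 ± 0.47 for CYP2C18 (SE, limma adjusted p = 2.37e-07), with 1 of 4 arrays of D4 well above background for either gene. With each D4 array raised to the lowest signal called well above background on it, the differences were 5.08 and 3.89. CYP2C19, with no D4 array well above background, rose at least 16.4-fold against this lowest signal (limma adjusted p = 1.65e-09). The bound for CYP2C19 was at least 36.5-fold for D30 − DMSO, at least 136-fold for D34 ± DMSO and at least 255-fold for D30 + DMSO, each against D4. These sizes depend on how dim signals are treated. With normexp background correction and its offset of 50, the differences from D4 to D15 were 3.30 for CYP2C8, 2.16 for CYP2C18 and 2.35 for CYP2C19, the last below the bound given here, and with a floor of 10 they were 5.41, 4.28 and 4.42, all of them called.

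From D15 to D30 − DMSO, the 15 further days without DMSO, none of the 3 genes was called by limma or by the methods' t-test, which is run on each gene by itself, and 0.0038% of all probes were called by limma. The differences were 0.64 (95% interval −0.87 to 2.15) for CYP2C8, 0.87 (−0.11 to 1.84) for CYP2C18 and 1.15 (0.21 to 2.10) for CYP2C19 on the log2 scale, with an adjusted p of 1 for each. The unadjusted limma p was below 0.05 for 1 of them, CYP2C19 (0.0192). The arrays of the 2 conditions overlapped for all 3 genes, and for CYP2C8 and CYP2C19 D15 replicate 4 was the only D15 array above the lowest of D30 − DMSO. For CYP2C8 this array, with a log2 value of 1.92, lay above all 4 arrays of D30 − DMSO.

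The comparison of D30 + DMSO with D30 − DMSO asked for the effect of DMSO at the same day. CYP2C19 was 6.99-fold higher with DMSO, a difference of 2.81 ± 0.45 on the log2 scale (SE, limma adjusted p = 0.000181), and was the only member called, in a step in which 1.68% of all probes were called higher and 4.14% lower. CYP2C8 was 3.44-fold higher and did not pass the test (1.78 ± 0.72, SE, limma adjusted p = 0.0997), although its arrays did not overlap, as was true of 11.8% of all probes in this direction. CYP2C18 was 1.95-fold higher with overlapping arrays and did not pass the test (0.96 ± 0.47, SE, limma adjusted p = 0.18). With normexp background correction, which changes how dim spots are treated, CYP2C8 was called (1.67 ± 0.375, SE, limma adjusted p = 0.00361). The standard error of 0.72 in the main fit rests on the D4 arrays as well. In the fit of the 16 later arrays CYP2C8 came closer to the threshold without reaching it (limma adjusted p = 0.0101). The same held with a floor of 10 (limma adjusted p = 0.00916) and in a fit of only the arrays compared (limma adjusted p = 0.00622).

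The within-session differences were furthest apart for CYP2C18. Within session 1 it was 1.50, with 3 arrays of D30 − DMSO and 2 of D30 + DMSO, and within session 2 it was 0.67, with 1 and 2 arrays. In the same order the differences were 1.55 and 1.60 for CYP2C8 and 2.58 and 3.22 for CYP2C19. Levels of CYP2C18 were lower in session 2 in all 4 conditions after D4, by 0.46 at D15 and by 1.31 in D30 + DMSO on the log2 scale, while levels of CYP2C8 were higher in session 2 in all 5 conditions, by 0.63 at D15 and by 0.87 in D30 + DMSO. With the session as a block the differences were 1.49 for CYP2C8 (limma adjusted p = 0.0819), 1.05 for CYP2C18 (limma adjusted p = 0.103) and 2.71 for CYP2C19 (limma adjusted p = 0.000175). With the slide as a block they were 1.81 (limma adjusted p = 0.0409), 1.12 (0.117) and 2.73 (0.000693).

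When the second phase of culture was taken as a whole, from D15 to D30 + DMSO, CYP2C19 rose 15.5-fold (3.96 ± 0.45, SE, limma adjusted p = 4.35e-06), in a step in which 2.18% of all probes were called higher. CYP2C8 was 5.35-fold higher (2.42 ± 0.72, SE, limma adjusted p = 0.022) and CYP2C18 3.56-fold higher (1.83 ± 0.47, SE, limma adjusted p = 0.00815), and neither met the threshold of 0.005. For all 3 genes no array of D15 reached the lowest of D30 + DMSO, as for 10.1% of all probes. CYP2C18 was called when D30 + DMSO replicate 4 was left out (2.15, limma adjusted p = 0.00368). With the slide as a block CYP2C8 was called (2.57, limma adjusted p = 0.00447) and CYP2C18 was not (1.89, limma adjusted p = 0.00917). With the session as a block neither was called (limma adjusted p = 0.00559 and 0.00551). In the fit of the 16 later arrays both were called, with a limma adjusted p of 0.00103 for CYP2C8 and 0.00267 for CYP2C18.

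After 4 days without DMSO, CYP2C8 was 4.14-fold lower than in D30 + DMSO (−2.05 ± 0.72, SE, limma adjusted p = 0.0492), with no overlap between the arrays, and did not meet the threshold. No member was called in this step by limma or by the methods' t-test, and 1.93% of all probes were called lower and 5.04% higher by limma. The unadjusted limma p was below 0.05 for CYP2C8 alone (0.0105). CYP2C8 met the threshold in the fit of the 16 later arrays (limma adjusted p = 0.00343), with normexp background correction (−1.91, limma adjusted p = 0.000967) and with a floor of 10 (limma adjusted p = 0.00275). CYP2C19 was 1.88-fold lower (−0.91 ± 0.45, SE, limma adjusted p = 0.177), also with no overlap, as for 11.1% of all probes in this direction. CYP2C18 differed by 0.12 (95% interval −0.86 to 1.10, limma adjusted p = 0.907), and its sign changed with the session, from −0.41 within session 1 to 0.41 within session 2. The within-session differences were −1.87 and −1.71 for CYP2C8 and −0.60 and −1.58 for CYP2C19, and with the session as a block they were −1.76 (limma adjusted p = 0.0385) and −0.81 (limma adjusted p = 0.184).

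**Figure D2:**
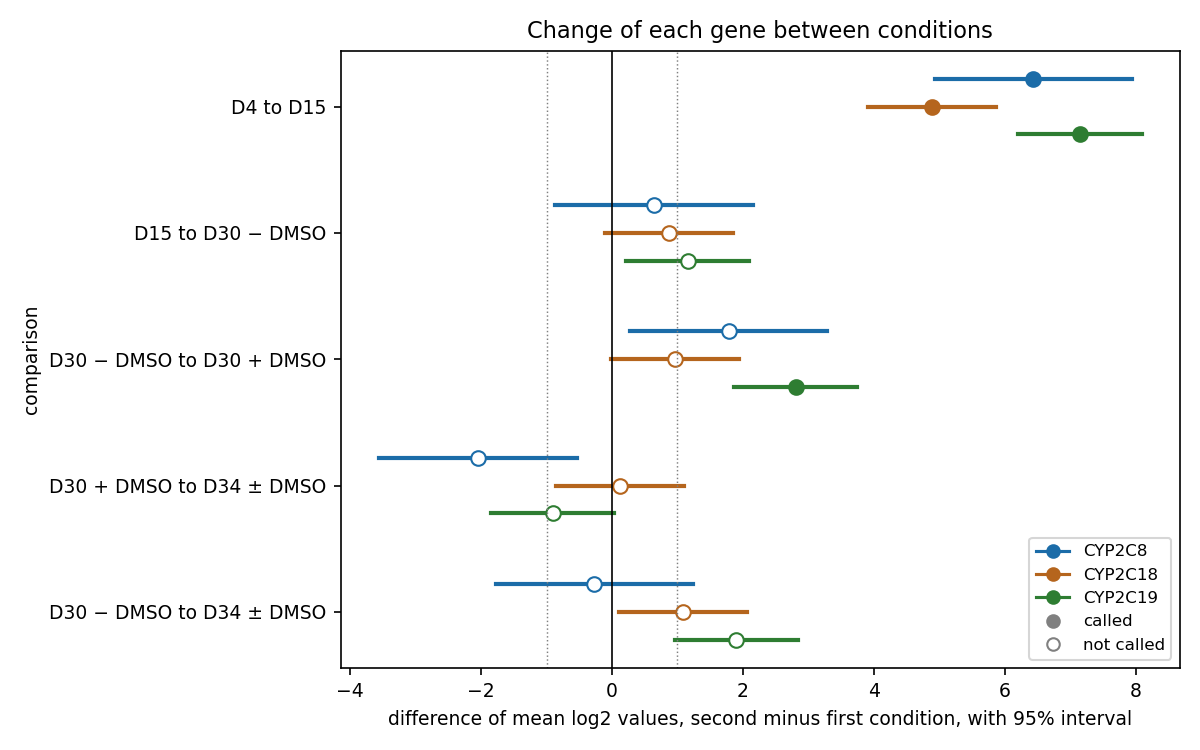
Differences of mean log2 values between conditions (horizontal axis, second minus first condition, dotted lines at 2-fold) for each comparison (vertical axis) and gene, with 95% intervals from limma and filled symbols for called changes. All 3 genes were called from D4 to D15, and CYP2C19 alone was called from D30 − DMSO to D30 + DMSO (2.81).

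Cells from which DMSO was withdrawn were also compared with cells that had never received it. CYP2C8 differed from D30 − DMSO by less than its error (−0.27, 95% interval −1.78 to 1.24, limma adjusted p = 0.972). CYP2C19 was 3.73-fold higher (1.90 ± 0.45, SE, limma adjusted p = 0.0172), with no overlap between the arrays, as for 5.62% of all probes, and did not meet the threshold. No member was called by limma or by the methods' t-test, beside 1.3% of all probes called higher, and the unadjusted limma p was below 0.05 for CYP2C18 (0.0314) and CYP2C19 (0.000499). CYP2C19 was called in 6 of 14 other settings, among them the fit of the 16 later arrays (limma adjusted p = 0.0018) and session 1 alone (1.98, limma adjusted p = 0.00025). CYP2C18 was 2.12-fold higher, again with no overlap, and did not pass the test (1.08 ± 0.47, SE, limma adjusted p = 0.263). Within sessions 1 and 2 the difference was 1.98 and 1.64 for CYP2C19, 1.09 and 1.08 for CYP2C18 and −0.32 and −0.11 for CYP2C8.

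**Figure D3:**
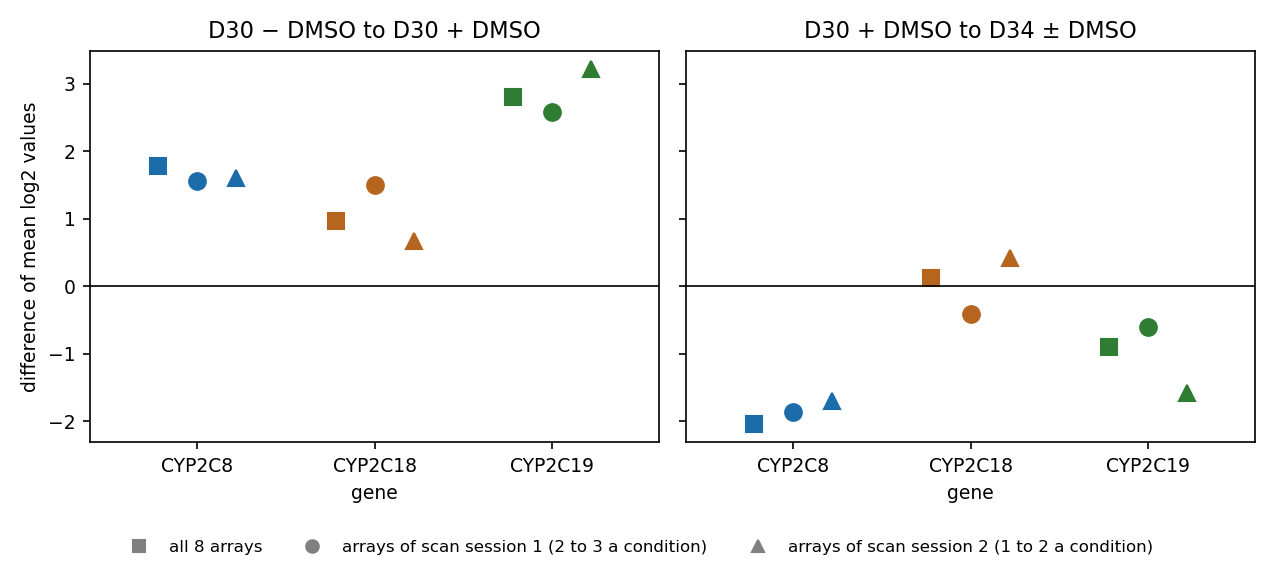
Differences of mean log2 values (vertical axis) for each gene on addition of DMSO (left) and on its removal (right), over all 8 arrays (squares), within scan session 1 (circles) and within scan session 2 (triangles). CYP2C8 and CYP2C19 kept their sign in both sessions, whereas CYP2C18 moved from −0.41 to 0.41 on removal.

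Taking the conditions in order of level, D4 was lowest for all 3 genes and was called against each of the other 4 conditions, where 6.09% of all probes were called higher in D30 − DMSO, 8.86% in D30 + DMSO and 5.53% in D34 ± DMSO than at D4. For CYP2C8 the order then was D15, D34 ± DMSO, D30 − DMSO and D30 + DMSO, and no neighbouring pair above D4 was called. D15 and D34 ± DMSO differed by 0.37 (95% interval −1.14 to 1.88). For CYP2C18, D15 was followed by D30 − DMSO, then D30 + DMSO and last D34 ± DMSO, again with no neighbouring pair called, while the outer pair, D15 and D34 ± DMSO, differed by 1.95 with a limma adjusted p of 0.0132. For CYP2C19 the order was D15, D30 − DMSO, D34 ± DMSO and D30 + DMSO. Its neighbours were not called, but D15 and D34 ± DMSO differed 8.29-fold (3.05 ± 0.45, SE, limma adjusted p = 0.000217), beside 1.62% of all probes called higher.

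Whether the genes responded differently from each other was tested on the difference of their log2 values within each array, by a two-sided exact permutation test of 4 against 4 arrays. For 3 pairs of genes and 4 steps, 12 tests were made, and the smallest p that this design allows is 0.0286. With DMSO, the change of CYP2C18 minus that of CYP2C19 was −1.84 on the log2 scale (exact p = 0.0286, adjusted p = 0.137), with no overlap between the arrays. From D4 to D15 no size can be given for the same difference, since CYP2C19 was not well above background at D4. It was −2.26 with a floor of 1 (exact p = 0.0286, adjusted p = 0.137), −0.15 with a floor of 10 (exact p = 0.6) and −0.18 with normexp background correction (exact p = 0.429). On removal of DMSO, CYP2C8 dropped by 2.17 more than CYP2C18 (exact p = 0.0571, adjusted p = 0.137) and by 1.14 more than CYP2C19 (exact p = 0.114, adjusted p = 0.196). No difference passed after adjustment, and the responses of the 3 genes were therefore not shown to differ. An adjusted p below 0.05 was possible only if most of the 12 tests reached the smallest p. The adjusted tests thus cannot decide whether a single pair of genes differed.

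Over the 20 arrays the log2 values of the members moved together, with Pearson's r of 0.93 between CYP2C8 and CYP2C18, 0.94 between CYP2C8 and CYP2C19 and 0.97 between CYP2C18 and CYP2C19. These arrays share their 5 conditions and 4 slides, and the low D4 arrays weigh on every coefficient. Over the 16 arrays without D4, r was 0.39, 0.69 and 0.85 in the same order, with CYP2C18 and CYP2C19 the closest pair. The members can also share signal on the array, because their transcripts are alike in sequence and the probe sequences were not used here.

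Likeness to all 13962 other genes with complete values was measured in the same way. The genes nearest to CYP2C8 were UGT2B15 (r = 0.985), UGT2B11 (0.981), A1CF (0.981), APOA1 (0.978) and AMBP (0.976). The first pair are glucuronosyltransferases, A1CF is a factor of APOB mRNA editing, and APOA1 and AMBP are plasma proteins made in liver. The genes nearest to CYP2C18 were MTTP (r = 0.99), ARG1 (0.989), PLGLB1 (0.988), PON1 (0.987) and F12 (0.987), among them the lipid transfer protein that loads lipoproteins, arginase of the urea cycle and coagulation factor XII. Near CYP2C19 were APOC3 (r = 0.99), NR1I2 (0.989), HPN (0.988) and ABCG8 (0.988), that is an apolipoprotein, the receptor PXR, a liver serine protease and a sterol transporter. Without the D4 arrays, r remained between 0.815 and 0.911 for the genes named for CYP2C8, between 0.893 and 0.961 for those of CYP2C18 and between 0.938 and 0.964 for those of CYP2C19.

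Known regulators of the subfamily were described by a list of 16 transcription factors and cofactors, all of them tested. At D15, 9 rose and 1, the vitamin D receptor VDR, fell, beside 7.16% and 5.17% of all genes called higher and lower. The list median was 1.44 against −0.02 over all genes on the log2 scale. PXR rose 10.2-fold, CAR 8.1-fold and CEBPA 6.36-fold, each called by limma, with PXR and CAR well above background on 2 of 4 arrays at D4. HNF4A was called as well, with no array well above background at D4, while the glucocorticoid receptor was 1.10-fold higher (limma adjusted p = 0.572). From D15 to D30 − DMSO no regulator was called by limma, with an unadjusted p below 0.05 for 4 of them. In this step 0.00711% of all genes were called higher and 0% lower.

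With DMSO, 2 of the 16 regulators rose and 1 fell, beside 1.98% and 4.97% of all genes called higher and lower. CAR rose 5.35-fold (2.42 ± 0.39, SE, limma adjusted p = 0.000181), and its other probe gave 2.21. The repressor NR0B2, known as SHP, rose 2.93-fold (limma adjusted p = 0.00187), and VDR fell 2.56-fold (limma adjusted p = 3.68e-05). PXR was 2.05-fold higher with a limma adjusted p of 0.00921 and was not called, and HNF4A (1.45-fold), CEBPA (1.45-fold) and the glucocorticoid receptor (1.10-fold lower) were not called either. On removal, CAR fell 4.04-fold (−2.01 ± 0.39, SE, limma adjusted p = 0.000847), NR0B2 fell 6.84-fold (limma adjusted p = 4.29e-06) and VDR rose 2.22-fold (limma adjusted p = 0.000154), beside 6.41% of all genes called higher and 2.27% lower. PXR was then 1.40-fold lower (limma adjusted p = 0.221). Against cells that had never received DMSO, the coactivator PPARGC1A was 2.22-fold lower after removal (limma adjusted p = 0.000135), beside 0.256% of all genes called lower and 1.96% higher. No other regulator was called. PPARGC1A was already 1.98-fold lower in D30 + DMSO than in D30 − DMSO, under the 2-fold limit (limma adjusted p = 0.000195). From D30 + DMSO to D34 ± DMSO it was 1.12-fold lower (limma adjusted p = 0.557).

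The other CYP2 genes, which encode related P450 enzymes elsewhere in the genome, were described in the same way. Of 11 listed genes 8 were tested, and 5 rose with DMSO, beside 1.98% of all genes called higher. The list median was 2.23 on the log2 scale against 0.03 over all genes. CYP2E1 rose 26.9-fold, CYP2B6 19.8-fold, CYP2A7 13.4-fold, CYP2A13 10.1-fold and CYP2J2 2.18-fold. On removal 5 fell, CYP2A7 33.3-fold, CYP2B6 32.9-fold, CYP2A13 16.8-fold, CYP2E1 11.8-fold and CYP2U1 2.07-fold, beside 2.27% of all genes called lower. The list median was then −2.30. The second probe of CYP2B6 gave 0.51 on addition and −0.59 on removal and was called in neither. After removal no gene of this list was called by limma against D30 − DMSO, with an unadjusted p below 0.05 for 6. In this comparison 1.96% of all genes were called higher and 0.256% lower. CYP2A7 and CYP2A13 have near-identical relatives, and their signals can be shared.

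**Figure D4:**
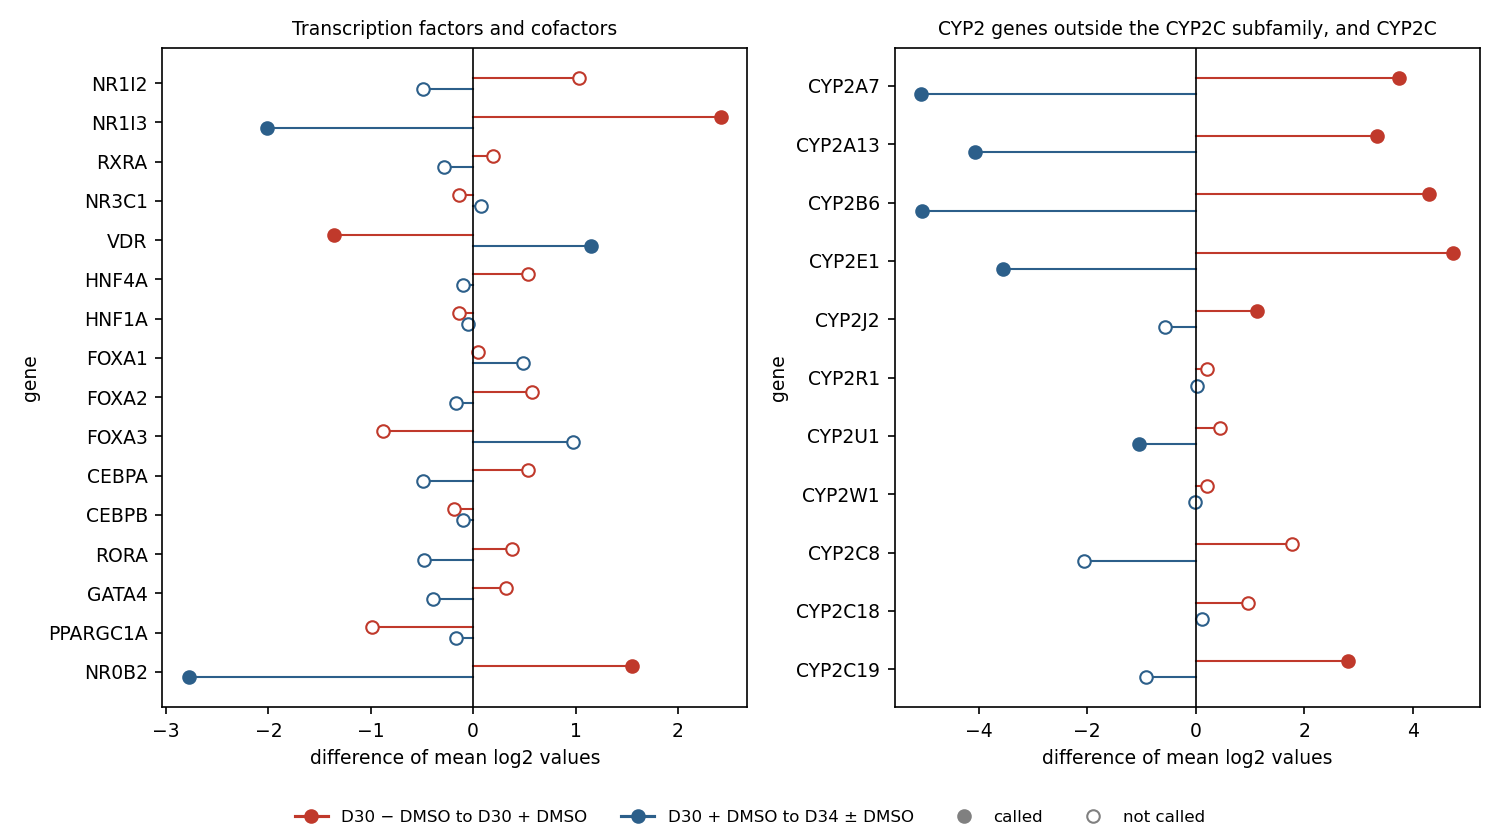
Differences of mean log2 values (horizontal axis) for 16 regulators (left) and for 8 other CYP2 genes with the 3 CYP2C genes (right), in red on addition of DMSO and in blue on its removal, both of which use the D30 + DMSO arrays, with filled symbols for called changes. CAR (NR1I3) moved by 2.42 and −2.01, CYP2B6 by 4.31 and −5.04, and CYP2C19 by 2.81 and −0.91.

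Of 2 further lists, 1 holds genes linked to P450 enzymes in general and 1 holds enzymes of arachidonic acid products, not all of which act with CYP2C enzymes. Of 8 genes of P450 electron transfer and heme supply 7 were tested, and cytochrome b5 type B (CYB5B) alone was called, 2.12-fold lower with DMSO and 2.16-fold higher on removal. With DMSO 1.98% of all genes were called higher and 4.97% lower, and on removal 6.41% and 2.27%. P450 reductase (POR) had no probe matched here. CYB5A, the microsomal cytochrome b5, was 1.69-fold higher with DMSO (limma adjusted p = 0.00411) and not called, since its change was under 2-fold. Of 6 genes for the epoxides and prostaglandins of arachidonic acid 4 were tested. The microsomal epoxide hydrolase EPHX1 rose 3.65-fold with DMSO (limma adjusted p = 0.000672) and the epoxygenase CYP2J2 rose 2.18-fold (limma adjusted p = 0.000144), whereas neither was called on removal (2.50-fold and 1.48-fold lower).

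Of 7 listed neighbours of the cluster on chromosome 10, 6 were tested. None was called by limma on addition of DMSO, with an unadjusted p below 0.05 for 1, beside 1.98% of all genes called higher and 4.97% lower. The list median was −0.09 on the log2 scale against 0.03 over all genes. The members differed by 2.81 for CYP2C19, which was called, and by 1.78 for CYP2C8 and 0.96 for CYP2C18, which were not. On removal HELLS, a chromatin remodeller of dividing cells, rose 4.80-fold (limma adjusted p = 5.25e-06), beside 6.41% of all genes called higher.

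Cell type and proliferation markers were followed beside the members, since the cultures hold more than 1 cell type. The 6 proliferation genes fell at D15, beside 5.17% of all genes called lower. They were not called by limma on addition of DMSO, with an unadjusted p below 0.05 for 1, beside 1.98% of all genes called higher and 4.97% lower. All 6 rose on removal, CDK1 by 14.7-fold, beside 6.41% of all genes called higher and 2.27% lower. Their summed scaled signals were 354.9 to 890.3 in D30 + DMSO and 4320 to 9791 in D34 ± DMSO. Of 10 hepatocyte markers, the plasma protein AHSG alone was called with DMSO, 6.34-fold lower, and on removal, 8.75-fold higher. The summed hepatocyte markers were 1463000 to 2484000 in D30 + DMSO and 1318000 to 1637000 in D34 ± DMSO. These sums are carried by the brightest genes. Among the single markers APOA1 was 2.61-fold lower on removal and not called (limma adjusted p = 0.0147), and the list median was −0.17 on the log2 scale against −0.06 over all genes. In the biliary and progenitor list, SOX9, a transcription factor of biliary cells, rose 2.46-fold with DMSO and fell 4.19-fold on removal, and the matrix protein SPP1 fell 3.45-fold and rose 4.74-fold. Of the mesenchymal markers 4 of 6 were tested and none was called by limma on addition or removal, with an unadjusted p below 0.05 for 1 and 3 of them. The part of cell numbers and of proliferation in the lower level of CYP2C8 after removal was not tested.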

How the data were processed

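RNA of HepaRG cells, a cell line, was measured on 20 one-color (Cy3) Agilent arrays, 4 for each of 5 conditions given by the labels. The authors deposited scanner output of Agilent Feature Extraction (10.7.3.1 in the submitters' notes, 10.7.1.1 in the file headers), whose processed signal is an intensity after background subtraction and detrending, with flags for outlier spots and for signal well above background. A matrix of log2 values that the authors deposited matches the scaled log2 signals here, for 21300 probes, once a baseline per probe and a shift per array (at most 0.0202) are allowed for, with a median absolute difference of 3.52e-07. The matrix served as an alternative.

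Outlier spots were left out, the 2 spots of each member probe were averaged, and signals were scaled, floored at 1 and taken to log2. Probes were named through RefSeq accessions, 24826 of 42405 with a current symbol. The 26327 kept probes were fitted with limma 3.58.1 (R 4.3.3), with 5 condition means over the 20 arrays. Thresholds follow the study's methods, but the tests are those of limma. For lists and likeness each gene was represented by its probe of highest mean. Promoters were aligned with Biopython 1.88. Precision depends on how many arrays there are. The limma p-values rest on the spread between the 4 experiments within conditions, pooled over the 5 conditions and drawn towards that of the other probes. The main fit has no term for the slide, so differences between slides are part of this spread. The slides are not spread evenly over the conditions, so differences between slides can also enter the estimated changes.

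The members, the gene lists (regulators, electron transfer and heme supply, arachidonic acid enzymes, other CYP2 genes, cluster neighbours, proliferation and cell type markers) and the alternatives were chosen with earlier results of these data known. Named genes are the members, listed genes called on addition or removal of DMSO, genes of the background and the 5 genes most like each member, of which some are not reported here. On simulated data with 200 of 26052 probes changed 4-fold, 84% were recovered for addition of DMSO, with 0 false calls. The simulated noise was drawn independently for each probe and array, without slides or scan sessions. These figures thus do not carry over to the measured arrays, where arrays of the same slide deviated together. Alternatives were quantile normalization, normexp correction of the background (offset 50), the authors' matrix, a floor of 10, no filter on dim probes, 1 probe per gene, slide or replicate block, only the arrays compared, an adjusted p below 0.05, the methods' t-test and analysis of variance, and leaving out each array. A scan session block, session 1 alone and a fit of the 16 later arrays were added after the data were seen.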

Additional observations from a re-analysis of the deposited data

Results flagged for a closer look

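Within conditions, the spread of the 4 arrays was examined for each of the 3 genes, 15 groups in all, and chance alone sets apart about 1 in 20 groups. CYP2C8 on D30 − DMSO replicate 4 had a log2 value of 1.86, apart from the other 3 arrays at 0.95 to 1.08, with a gap of 0.857 of the range, above Dixon's 95% limit for 4 values. This array belongs to scan session 2. CYP2C19 on D4 replicate 4 had a log2 value of −6.18 while the other 3 arrays were at the floor of −8.58, a gap equal to the whole range, and none of the 4 was well above background. The floor made this gap, since any value above 3 equal ones is apart by the whole range.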

How the results depend on the processing

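The direction and the side of the threshold were the same for 224 values of the steps and 30 of the change over the 5 conditions under settings other than leaving out an array, while 22 values passed the threshold only there, 5 no longer passed it and 1 turned its sign. The call of CYP2C19 on addition of DMSO was kept in all 14 such settings (2.58 to 2.81), and its call from D15 to D30 + DMSO was kept as well. From D4 to D15 it was called in all 13 settings run, but its size ranged from 2.35 with normexp background correction to 7.55 in session 1 alone. In this step CYP2C8 ranged from 3.30 to 6.83 and CYP2C18 from 2.16 to 5.46, lowest with normexp and highest in session 1 alone for both. Further calls appeared in other settings. With normexp background correction these were CYP2C8 on addition (1.67) and removal (−1.91) of DMSO, CYP2C19 after removal against never exposed cells (1.78), and CYP2C8 (2.26) and CYP2C18 (1.55) from D15 to D30 + DMSO. With a floor of 10, an adjusted p below 0.05 or the fit of the 16 later arrays they were CYP2C8 on removal (−2.05), CYP2C19 after removal against never exposed cells (1.90), and CYP2C8 (2.42) and CYP2C18 (1.83) from D15 to D30 + DMSO. CYP2C19 after removal was also called with only the arrays compared (1.90) and in session 1 alone (1.98), and CYP2C8 from D15 to D30 + DMSO with the slide as a block (2.57). The methods' t-test did not call CYP2C8 (6.44) and CYP2C18 (4.89) from D4 to D15. The F-test of CYP2C8 missed its threshold without the filter on dim probes (8.86), with the methods' analysis of variance (8.86) and in session 1 alone (9.13). The sign of CYP2C18 on removal turned in session 1 alone (−0.41), and that of the change of CYP2C8 minus CYP2C19 from D4 to D15 turned with normexp (0.96) and with a floor of 10 (0.98), both of which raise dim signals. For the other calls that changed, the cause was not tested.

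Samples with the same replicate number did not deviate together in every pair of conditions (40 pairs of arrays, median r = 0.27, lowest −0.32, 28 over 0.1), whereas arrays of the same slide did (44 pairs, median r = 0.38, 44 over 0.1). With a replicate block, CYP2C8 (2.42) and CYP2C18 (1.83) were called from D15 to D30 + DMSO, and no other call of the members changed.

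Leaving out each array in turn, the F-test range of CYP2C8 was 7.94 to 9.56, with its call lost without D4 replicate 1. CYP2C18 from D15 to D30 + DMSO ranged from 1.50 to 2.15 and was called without D30 + DMSO replicate 4. CYP2C8 after removal against never exposed cells ranged from −0.526 to 0.049, and CYP2C18 on removal from −0.19 to 0.37, so that the sign of both rested on single arrays. The change of CYP2C8 minus CYP2C18 from D15 to D30 − DMSO ranged from −0.556 to 0.033. A filter that asks for a signal well above background on every array kept no member, and each gene has 1 probe, so the alternatives that need these were not run.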
